A study of Mus musculus with 9 samples.

Results

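The clustered protocadherins are cell adhesion molecules of the cadherin superfamily, and 20 of them were found among the 19505 named genes of this hippocampal array data set by their symbols (Pcdha, Pcdhb or Pcdhg followed by a number, Pcdhac or Pcdhgc). All 20 belong to the beta subcluster, Pcdhb1 to Pcdhb20, and each is read by 1 probe set. The reference gene table lists 58 clustered protocadherins, of which 14 are alpha, 22 are beta and 22 are gamma genes. The 14 alpha genes, the 22 gamma genes with the C-type members Pcdhac1, Pcdhac2, Pcdhgc3, Pcdhgc4 and Pcdhgc5, and the beta genes Pcdhb21 and Pcdhb22 were not analysed here.

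The genes stand in a row of alpha, beta and gamma subclusters on mouse chromosome 18. Each neuron switches on its own small selection of them through the choice of a promoter, in which the DNA-looping factor CTCF, cohesin and promoter methylation take part, and the proteins bind their own kind on the next cell, which lets neurites tell themselves from others. Beta members are each encoded by a lone exon with a short cytoplasmic end of its own, whereas alpha and gamma members splice their variable exons to shared constant exons. The series was made to look for transcripts that differ in the hippocampus, a region needed for memory, when cognition declines early in adult life, and here the question was how the protocadherin row differs in these mice.

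Hippocampal RNA of 9 male mice (C57BL6 by the labels, C57BL/6NCrSlc by the study's methods) was hybridised to Affymetrix Mouse Clariom S arrays, 1 array per mouse, and the values are log2 expression values, so that a difference of 1 is a doubling. The p3 mice (2, 6 and 11) were adult mice of 47 weeks with declining cognition, taken as those ranked lowest among the adults in a Y-maze and an open field, the p2 mice (3, 8 and 18) were adults of 47 weeks with normal cognition, and the p1 mice (7, 19 and 20) were young mice of 11 weeks with normal cognition. The labels mark the p3 mice only with the letter D, which was read as decline after the group names of the study. In the p2 mice 15915 of 22206 values (71.7%) lie on a straight line once sorted by size and were not used as measurements. Of the 20 beta protocadherins 0 have a measured p2 value. The only comparison these genes allow is therefore p3 with p1, in which age and the decline in cognition differ together and cannot be told apart. The 6 arrays of p3 and p1 had median log2 values of 6.62 to 6.71 and correlated with each other at 0.990 to 0.994 across probe sets.

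Almost the whole beta row was above the level of genes that are silent in this tissue. Vomeronasal receptors, which are expressed in the sensory neurons of the vomeronasal organ, gave a measure of that level, and the 95th percentile of their 319 genes was a log2 value of 5.56. The mean over the 6 mice lay above it for 19 of the 20 members, and the same 19 were above it in every mouse. Against the 99th percentile of these receptors, at 7.79, 13 members were higher. Against the 95th percentile of 1080 olfactory receptors, at 5.26, the count was again 19. The exception was Pcdhb1, the first gene of the row, with 3.61, 3.09 and 2.97 in p3 mice 2, 6 and 11, against 3.01, 2.48 and 3.17 in p1 mice 7, 19 and 20. Pcdhb1 thus lay within the range of the silent receptors, and its groups overlapped. The highest mean was that of Pcdhb20, at 9.87 over the 6 mice, and the median of the 20 means was 8.24. Probe sets differ in how well they bind, so these levels place each gene against silent genes and do not rank the transcripts by amount. The beta genes resemble each other in sequence, and how far a probe set also reads its neighbours was not tested.

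**Figure D1:**
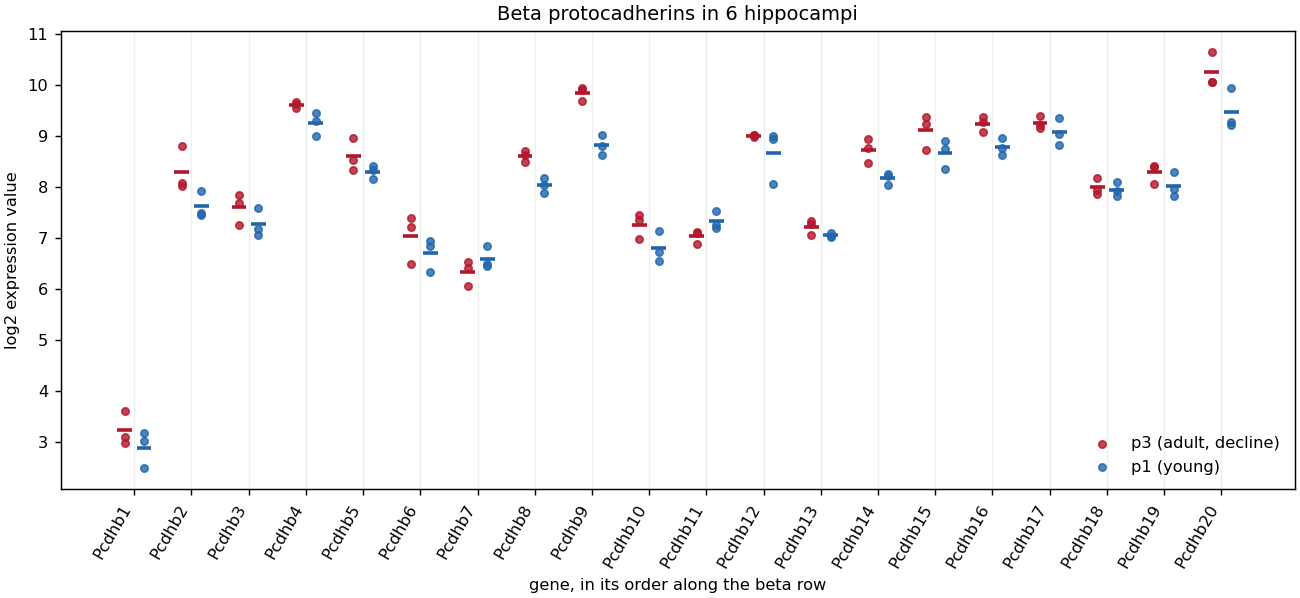
Log2 expression value (vertical axis) of the 20 beta protocadherins in their order along the row, with 1 point per mouse and a bar at the group mean (p3 red on the left, p1 blue on the right of each pair, n = 3 each). All 3 p3 points stand above all 3 p1 points for Pcdhb2, Pcdhb4, Pcdhb8, Pcdhb9, Pcdhb14, Pcdhb16 and Pcdhb20, and Pcdhb1 lies far below the other genes.

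The beta row was mostly higher in p3 than in p1 mice. The mean was higher in p3 for 18 of 20 members (90%), where 50.4% of all 22206 probe sets had a higher mean. The median difference of the 20 members was 0.33 on the log2 scale, with a range of -0.29 to 1.03, and 14 members differed by more than 0.3. Over all probe sets the median difference was 0.0033, with the 5th and 95th percentiles at -0.37 and 0.41, and 8% of all probe sets had a difference above the median of the members. The members share a locus and were read from the same 6 mice, so they are not independent of each other and no test was made of the row as a whole.

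The study counted a gene as changed when its fold was over 1.5 and its unadjusted p under 0.05, and by this threshold 3 members (15%) were called, against 1.7% of all probe sets. All 3 were higher in p3, a direction in which 0.941% of all probe sets were called, and 0 were lower, where the share of all probe sets was 0.757%. With the 2 tests of the study's methods, which do not moderate the spread across genes, 1 member (Pcdhb9) was called, against 0.829% and 0.856% of all probe sets. At an unadjusted p under 0.05 alone, 6 members (30%) were higher in p3, against 3.02% of all probe sets, and 0 were lower, against 2.69%. Among the 12302 probe sets with a mean log2 value of at least 6, a background chosen after the levels had been seen, 6 of 19 members (31.6%) were higher at this p, against 2.12% of those probe sets. After Benjamini-Hochberg adjustment over all probe sets in limma, 0 members reached an adjusted p under 0.05, and neither did any other probe set (0% called, smallest adjusted p 0.729). Over the whole array 1267 probe sets (5.71%) had an unadjusted p under 0.05 in either direction. With 3 mice against 3 an exact permutation test of 1 gene cannot go below 0.1 (two-sided).

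**Figure D2:**
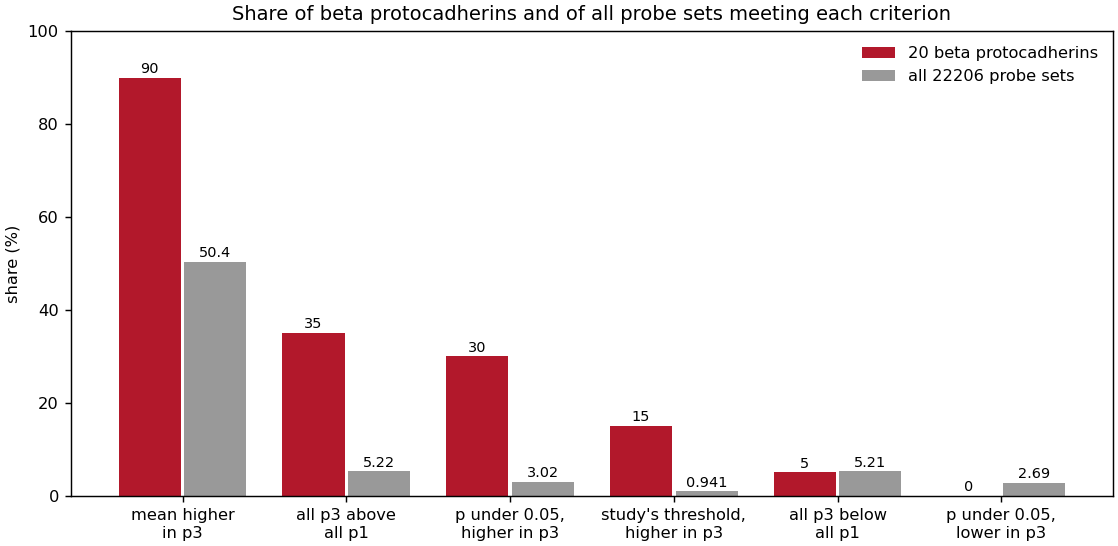
Share in percent (vertical axis) of the 20 beta protocadherins (red) and of all 22206 probe sets (grey) that met each criterion in p3 against p1. The red bars are higher for the 4 criteria in the direction of p3 (90% against 50.4%, 35% against 5.22%, 30% against 3.02% and 15% against 0.941%) and not for the 2 in the opposite direction (5% against 5.21% and 0% against 2.69%).

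Pcdhb9 had the largest difference of the row. Its values were 9.91, 9.95 and 9.68 in p3 mice 2, 6 and 11, against 8.62, 8.81 and 9.03 in p1 mice 7, 19 and 20. The lowest p3 mouse was 0.65 above the highest p1 mouse, so the groups did not overlap. Pcdhb9 averaged 9.85 ± 0.15 in p3 and 8.82 ± 0.21 in p1 (SD, n = 3 each), a difference of 1.03 on the log2 scale (SE 0.16, 95% interval 0.65 to 1.40) or a fold of 2.04. Its limma p of 0.000217 was the 6th smallest of the 22206 probe sets, with an adjusted p of 0.729. It was past the study's threshold in all 20 alternative fits, with differences of 0.93 to 1.13. Some of these fits could hardly differ for Pcdhb9, such as those without a p2 mouse, because it has no p2 value.

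Pcdhb20, near the end of the row, and Pcdhb2, near its start, also passed the study's threshold. Pcdhb20 had 10.07, 10.65 and 10.06 in p3 mice 2, 6 and 11, against 9.21, 9.28 and 9.94 in p1 mice 7, 19 and 20. Here p3 mouse 6 was the highest, and p1 mouse 20 came within 0.12 of the lowest p3 mouse, without overlap. The means were 10.26 ± 0.34 in p3 and 9.48 ± 0.40 in p1 (SD, n = 3 each), and the difference was 0.78 (SE 0.25, 95% interval 0.21 to 1.35, limma adjusted p 0.860). Pcdhb2 had 8.80, 8.09 and 8.02 in p3 mice 2, 6 and 11, against 7.92, 7.49 and 7.46 in p1 mice 7, 19 and 20. The highest was p3 mouse 2, and p3 mice 6 and 11 stood just over p1 mouse 7, with a gap of 0.10. The means were 8.30 ± 0.43 in p3 and 7.62 ± 0.26 in p1 (SD, n = 3 each), a difference of 0.68 (SE 0.24, 95% interval 0.13 to 1.23, limma adjusted p 0.860). Without p3 mouse 2 the difference of Pcdhb2 was 0.43 and its call was lost, and the call was also lost without p1 mouse 19 (0.61) and without p1 mouse 20 (0.60). Neither Pcdhb20 nor Pcdhb2 was called by either unmoderated test.

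A further 3 members had an unadjusted p under 0.05 with a fold below 1.5. Pcdhb8 had 8.63, 8.50 and 8.71 in p3 mice 2, 6 and 11, against 8.18, 7.88 and 8.04 in p1 mice 7, 19 and 20. Its groups were tight and lay 0.32 apart, and its fold of 1.49 (difference 0.58, SE 0.15) fell just short of the threshold. Pcdhb14 had 8.77, 8.94 and 8.47 in the same p3 mice, against 8.22, 8.05 and 8.25 in the p1 mice. Again every p3 mouse was higher, by a fold of 1.47 (difference 0.55, SE 0.17). Pcdhb16 had 9.38, 9.28 and 9.08 in the p3 mice, against 8.97, 8.63 and 8.77 in the p1 mice, with no overlap and a fold of 1.37 (difference 0.46, SE 0.16). The limma adjusted p was 0.860 for all 3.

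In all, every p3 mouse was above every p1 mouse for 7 members (35%), against 5.22% of all probe sets. They are the 6 just described and Pcdhb4, which had 9.55, 9.67 and 9.63 in p3 mice 2, 6 and 11, against 9.45, 9.30 and 9.01 in p1 mice 7, 19 and 20. Its p3 mice were within 0.12 of each other and its p1 mice spread more widely, with a difference of 0.36 (SE 0.16). The reverse, every p3 mouse below every p1 mouse, was seen for 1 member (5%), against 5.21% of all probe sets. That member was Pcdhb11, with 7.10, 6.89 and 7.12 in the p3 mice, against 7.54, 7.19 and 7.26 in the p1 mice, a difference of -0.29 (SE 0.16, limma adjusted p 0.874). The other member with a lower mean in p3 was Pcdhb7, at 6.34 ± 0.25 in p3 and 6.60 ± 0.22 in p1 (SD, n = 3 each), where the groups overlapped.

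The remaining 11 members had higher means in p3 with overlapping groups, at differences of 0.04 to 0.46. The largest of these was at Pcdhb10, which had 7.35, 7.45 and 6.99 in p3 mice 2, 6 and 11, against 6.72, 6.55 and 7.14 in p1 mice 7, 19 and 20. There p1 mouse 20 overlapped with p3 mouse 11, and the other mice were apart. Pcdhb15 was next, with a difference of 0.44 (SE 0.22). Pcdhb12 had 8.98, 9.02 and 9.02 in the p3 mice, against 8.95, 9.01 and 8.07 in the p1 mice. Its difference of 0.33 came from p1 mouse 20 alone and was 0.03 without it. The smallest difference was at Pcdhb18, with 0.04 (95% interval -0.32 to 0.40), which leaves room for a change of either sign. The standard deviation within groups had a median of 0.23 over the members, with a range of 0.10 to 0.41, and was 0.23 over all probe sets.

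**Figure D3:**
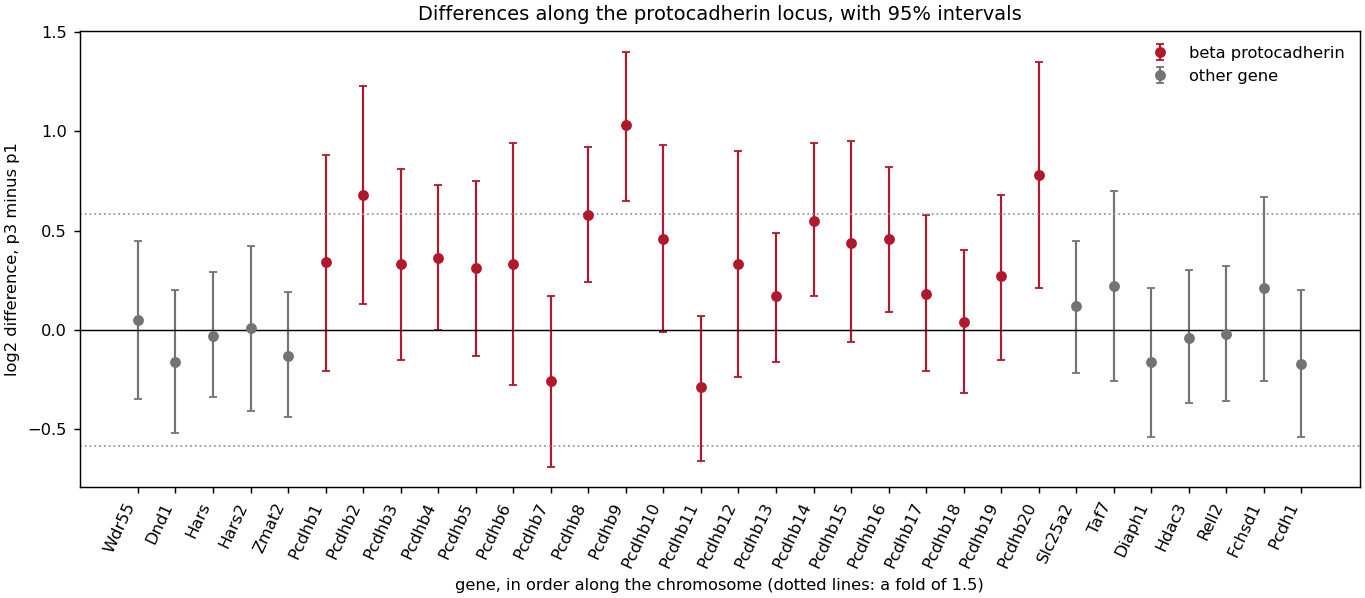
Log2 difference, p3 minus p1 (vertical axis), of the 20 beta protocadherins (red) and of 12 other genes of the locus (grey), in chromosomal order, with 95% intervals from the limma fit and dotted lines at a fold of 1.5. The beta row reaches from -0.29 to 1.03 and the other genes from -0.17 to 0.22.

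Differences as large as those of Pcdhb9, Pcdhb20 and Pcdhb2 were not measured in the genes around the row. Taken after the members' values had been seen, 12 genes of the same stretch of chromosome were compared, 5 on either side of the whole protocadherin cluster and 2 between its beta and gamma genes. Their differences ran from -0.17 to 0.22 with a median of -0.02, and 0 of the 12 had an unadjusted p under 0.05. The genes between the subclusters are Slc25a2, which encodes a mitochondrial ornithine carrier, and Taf7, a subunit of the general transcription factor TFIID. They differed by 0.12 (SE 0.15) and 0.22 (SE 0.21). Their means over the 6 mice, 3.9 and 5.49, lay below the 95th percentile of the vomeronasal receptors (5.56). So did that of Dnd1 (4.17), before the cluster, and at such levels a difference could be missed. Hdac3, a histone deacetylase gene beyond the gamma genes, had 13.12, 12.99 and 12.84 in p3 mice 2, 6 and 11, against 12.97, 12.95 and 13.14 in p1 mice 7, 19 and 20, with overlap and a difference of -0.04. Within the row, the members that were higher and lower in p3 were interspersed, and Pcdhb7 and Pcdhb11, with the lower means, stand on either side of the stretch of Pcdhb8, Pcdhb9 and Pcdhb10.

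The members did not move alike in each mouse. Relative to each gene's mean over the 6 mice, the median member stood at 0.22, 0.23 and 0.04 in p3 mice 2, 6 and 11, against -0.04, -0.36 and -0.14 in p1 mice 7, 19 and 20. The p3 medians were thus all above the p1 medians, with p3 mouse 11 and p1 mouse 7 close to each other. The highest value of a gene fell in p3 mouse 6 for 11 members, and the lowest in p1 mouse 19 for 10 members.

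Genes of other tissue varied between the same mice. The choroid plexus is the secretory lining of the brain ventricles, next to the hippocampus, and the mean of its 15 measured markers was 5.77, 5.93 and 10.02 in p3 mice 2, 6 and 11, against 6.16, 10.28 and 6.34 in p1 mice 7, 19 and 20. Its defining marker Ttr, the carrier of thyroid hormone, was at 9.74, 10.41 and 19.19 in the p3 mice, against 12.92, 19.05 and 14.67 in the p1 mice. The markers were high in p3 mouse 11 and p1 mouse 19, 1 mouse of each group, and 11 of the 15 had a lower mean in p3 (median difference -0.31, 0 with an unadjusted p under 0.05). The 14 thalamus markers averaged 7.55, 7.49 and 10.31 in the p3 mice, against 7.37, 8.13 and 7.45 in the p1 mice, and were highest in p3 mouse 11. Of these markers 13 had a higher mean in p3 (median difference 0.87), and 1 was past the study's threshold. Rgs16, a regulator of G protein signalling enriched in thalamus, was at 10.05 in that mouse and at 6.27 to 6.97 in the other 5. Without p3 mouse 11 and p1 mouse 19 together, the median difference of the members was 0.39, 17 of 20 had a higher mean in p3, and 4 (Pcdhb2, Pcdhb9, Pcdhb14 and Pcdhb20) were past the study's threshold, against 3.76% of all probe sets.

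Markers of hippocampal cells were compared in the same way. Of 9 dentate granule cell markers 8 had lower means in p3, with a median of -0.38, and the list was high in p1 mouse 7. Of 9 oligodendrocyte markers 6 had lower means (median -0.25), of 10 astrocyte markers 8 had higher means (median 0.10), and of 8 microglia markers 7 had higher means (median 0.14). The 10 pyramidal cell markers, which mark the labelled tissue, averaged 11.38, 11.46 and 11.23 in p3 mice 2, 6 and 11, against 11.69, 11.32 and 11.41 in p1 mice 7, 19 and 20. Of them 7 had lower means in p3 (median -0.11).

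Of the 122 marker genes measured in 14 lists, 6 (4.92%) had an unadjusted p under 0.05 and 4 (3.28%) were past the study's threshold, against 5.71% and 1.7% of all probe sets. They include Dcn, which encodes the matrix proteoglycan decorin and marks fibroblasts and meninges, with 13.38, 12.73 and 12.87 in p3 mice 2, 6 and 11, against 10.06, 12.09 and 11.84 in p1 mice 7, 19 and 20. Dcn was higher in every p3 mouse (difference 1.66, SE 0.48), while its list of 7 had 4 higher and 3 lower means in p3 (median 0.03), with list means of 8.15, 7.98 and 8.32 in the p3 mice, against 7.74, 8.40 and 7.77 in the p1 mice. Gpr17, a receptor of cells maturing into oligodendrocytes, had 7.29, 7.26 and 7.37 in the p3 mice, against 8.51, 8.17 and 7.89 in the p1 mice. It was lower in every p3 mouse (difference -0.88, SE 0.18), and its list of 5 oligodendrocyte precursor markers had 2 higher and 3 lower means (median -0.20), with list means of 7.99, 8.28 and 8.30 in the p3 mice, against 8.54, 8.44 and 8.24 in the p1 mice. The other 2 past the threshold, Igfbpl1 and Cbln1, had overlapping groups. Igfbpl1 differed by -1.04 at a mean of 4.49, below the 95th percentile of the vomeronasal receptors (5.56). Its list of 6 immature neuron markers had 2 higher and 4 lower means (median -0.28). Cbln1, of the thalamus list, differed by 0.89. The endothelial tight junction gene Cldn5 was lower in every p3 mouse (difference -0.39, SE 0.14), in a list of 10 with 5 higher and 5 lower means (median -0.04). C1qb of the microglia list was higher in p3 with overlapping groups (difference 0.40, SE 0.18). That list of 8 had 7 higher and 1 lower means (median 0.14). The part of cell composition in the differences of the protocadherins was not tested, and in tissue RNA more cells of a type and more RNA per cell cannot be told apart.

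**Figure D4:**
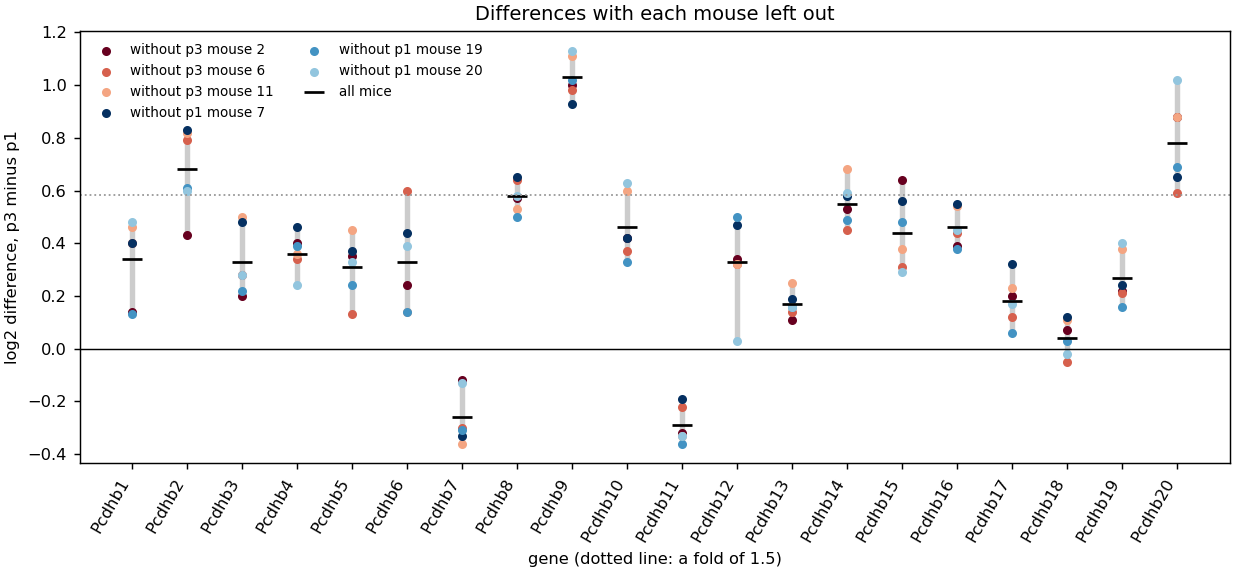
Log2 difference, p3 minus p1 (vertical axis), of each beta protocadherin with all mice (black bar) and with each p3 or p1 mouse left out in turn (points). Pcdhb9 stays between 0.93 and 1.13, and Pcdhb18 is the only member whose points lie on both sides of 0.

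Leaving out each of the 6 mice in turn kept the sign of the difference for 19 of 20 members, the exception being Pcdhb18 (-0.05 to 0.12). The number past the study's threshold ran from 2 without p1 mouse 19 to 5 without p3 mouse 6 or without p3 mouse 11, with Pcdhb9 and Pcdhb20 among them every time. The share of all probe sets past it moved too, and was 3.05%, 2.15% and 2.28% in the fits that left out p1 mouse 19, p3 mouse 6 and p3 mouse 11.

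Related genes were taken from 7 lists of partners, regulators and relatives of the clustered protocadherins and of other adhesion molecules. In these lists 103 genes were measured. Of these, 5 (4.85%) had an unadjusted p under 0.05 (4 higher and 1 lower in p3), close to the 5.71% of all probe sets, and 0 were past the study's threshold. Their medians ran from -0.14 to 0.10, below the 0.33 of the beta row. The differences between the lists and the row were not tested.

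The nonclustered protocadherins, relatives encoded outside the cluster, were nearest in kind. Of 12 listed, 11 were measured, with a median difference of 0.06 and a range of -0.17 to 0.43, and 0 had an unadjusted p under 0.05. The largest was Pcdh12, an endothelial member, with a difference of 0.43 (SE 0.25) and overlapping groups. Its mean of 4.78 lay below the 95th percentile of the vomeronasal receptors (5.56). Pcdh1, which lies beyond the gamma genes on the same chromosome, differed by -0.17 and Pcdh8 by -0.17, and Pcdh18 by -0.16. Pcdh1 is also among the 12 genes compared around the row. Of the nonclustered protocadherins Pcdh7, Pcdh10 and Pcdh18 were measured in p2 as well. Some genes of the other lists, such as Tet2, Wasf2, Sdk1, Igfbpl1 and C1qb, also have p2 values, and only p3 and p1 are compared here.

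The list of promoter choice, with CTCF, cohesin, silencing factors and enzymes of DNA methylation, had 24 measured genes and a median difference of -0.01. The lowest was Tet3, which oxidises methylated cytosine, with 8.65, 8.90 and 9.26 in p3 mice 2, 6 and 11, against 9.69, 9.28 and 9.51 in p1 mice 7, 19 and 20. The groups lay 0.02 apart, at a difference of -0.56 (SE 0.20, limma adjusted p 0.860). Its relatives Tet1 and Tet2 had differences of 0.41 (SE 0.23) and 0.30 (SE 0.15), and Mau2, part of the cohesin loader, of -0.25. Ctcf itself differed by 0.03 (95% interval -0.31 to 0.37), with 12.15, 12.21 and 12.14 in the p3 mice, against 12.24, 11.94 and 12.24 in the p1 mice. Smchd1, which silences the clusters, differed by -0.19 and the DNA methyltransferase Dnmt3b, which methylates their promoters, by 0.23, both with overlapping groups. Dnmt3b had a mean of 3.39 over the 6 mice, below the 95th percentile of the vomeronasal receptors (5.56).

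The proteins through which protocadherins signal gave a median of -0.09 over 17 genes. Wasf2, a WAVE subunit that drives actin branching, had an unadjusted p under 0.05 at a difference of 0.33 (SE 0.13), with 8.65, 8.73 and 8.56 in p3 mice 2, 6 and 11, against 8.46, 8.30 and 8.20 in p1 mice 7, 19 and 20. Its groups did not overlap. Marcks, an actin-linked substrate of protein kinase C, differed by -0.29, the WAVE subunit Brk1 by -0.25 and the kinase Fyn by -0.17. Among 6 genes of protocadherin cleavage (median -0.14), Psenen and Ncstn, both subunits of gamma-secretase, differed by -0.19 and 0.21, Aph1a and Psen2 of the same complex by -0.18 and -0.17, and the sheddase Adam10 by -0.06. Among 6 genes of synaptic partners of gamma protocadherins (median 0.05), the neuroligins Nlgn3, Nlgn2 and Nlgn1 differed by -0.27, 0.22 and 0.24. Nrxn2, a neurexin that binds neuroligins, differed by -0.16.

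Of 16 classical cadherins and catenins (median 0.10), Cdh12, a neuronal type II cadherin, had an unadjusted p under 0.05, with 11.94, 12.01 and 11.56 in p3 mice 2, 6 and 11, against 11.40, 11.23 and 11.52 in p1 mice 7, 19 and 20. It was higher in every p3 mouse, with a gap of 0.04 and a difference of 0.45 (SE 0.17). The endothelial Cdh5 differed by 0.33, Cdh2 (N-cadherin) by 0.19 and Cdh11 by -0.21. Of 23 other recognition molecules (median 0.03), Sdk1, a synaptic adhesion molecule of the immunoglobulin superfamily, and Tenm4, a teneurin, had an unadjusted p under 0.05, each at a difference of 0.47 (SE 0.17 and 0.19). The groups overlapped for Sdk1 and not for Tenm4. Sdk1 had a mean of 4.88 over the 6 mice, below the 95th percentile of the vomeronasal receptors (5.56). Fat1, a giant cadherin, differed by 0.32 and Tenm1 by 0.25.

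**Figure D5:**
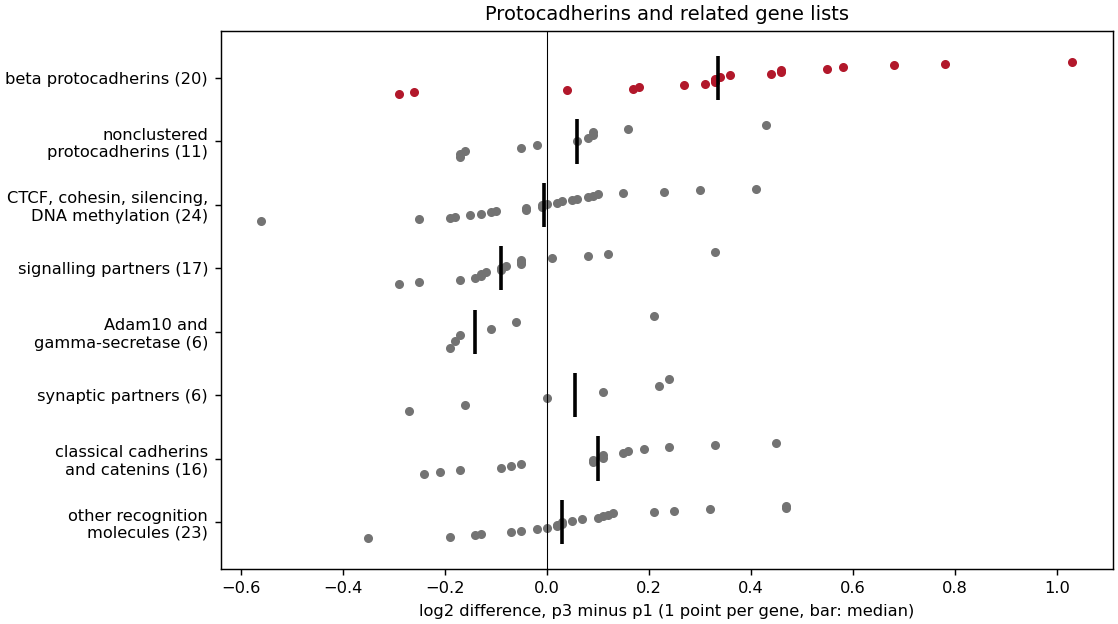
Log2 difference, p3 minus p1 (horizontal axis), of the beta protocadherins (red) and of the genes of 7 related lists (grey), with 1 point per gene, the number of measured genes in parentheses and a black bar at the median. The bar of the beta row stands at 0.33 and those of the lists between -0.14 and 0.10.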

How the data were processed

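The deposited log2 values per probe set were normalized by the authors in the Transcriptome Analysis Console. How background was corrected and probes were summarised, and on which genome build, is not given in the sources used here. In p2, 15915 of 22206 values lay on a fitted line once sorted by size (largest gap 5e-10) and were set to missing. Probe sets were named from the platform annotation (19572 with 1 symbol), and Entrez IDs matched 19572 of them to RefSeq GRCm38.p6, used for names and gene order only. A gene was read from its probe set with the highest mean. A mean per group was fitted over the 9 mice in limma 3.58.1 (R 4.3.3) with no covariate, which gave the members 4 residual and 4.22 prior degrees of freedom. Intervals are from the moderated fit, and p-values were adjusted over all probe sets by Benjamini-Hochberg. The fit was tested on simulated data. Genes were named if they were members past the threshold, among the 3 smallest p, without overlap, or highest or lowest, and each pathway list gave its 4 smallest p. Pcdhb7, Pcdhb10, Pcdhb12, Pcdhb15, Pcdhb18, Hdac3, Slc25a2, Taf7, Adam10 and the marker genes Dcn, Gpr17, Igfbpl1, Cbln1, Cldn5 and C1qb were added after their values were seen. The members and lists were chosen with earlier results of these data known. Each label is 1 mouse, and no scan batch is given. Alternatives were an unmoderated one-way model and t-test, other fits, weights, normalizations, filters and fold thresholds, and leaving out mice.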

Additional observations from a re-analysis of the deposited data

How the results depend on the processing

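Against 3 members past the study's threshold, the unmoderated t-test and one-way model each gave 1 (0.829% and 0.856% of all probe sets were called). They are the same test for the members, which have no p2 values. A fold over 1.2 gave 6 (5.71%) and a fold over 2 gave 1 (0.122%). Leaving out 1 mouse gave 2 to 5. In each of these fits Pcdhb9 was among them. Quantile normalization gave 4, with Pcdhb8 added (1.61%). The call of Pcdhb20 was lost in the t-test and the one-way model, and that of Pcdhb2 in these and in 3 of the fits without 1 mouse. At an adjusted p under 0.05 the count was 0 in every setting, and at an unadjusted p under 0.05 the t-test gave 4 members, all higher in p3, where it called 2.49% of all probe sets. The median difference ran from 0.29 to 0.45 with 1 mouse left out, and 0 of the members named by rule changed sign. For all of those members but Pcdhb1 the groups do not overlap, so leaving out mice could not change the sign. Pcdhb18, not named by rule, changed sign without p1 mouse 20 (-0.02) and without p3 mouse 6 (-0.05). For the summary results of the row and the members named by rule, 236 values across the settings were counted as unchanged and 24 as changed. Many of these values could hardly change, so the 2 counts do not measure stability. The members have no p2 values and 1 probe set each. Fits without a p2 mouse, with the 6 mice alone or with probe set means therefore nearly repeat the main fit. For a member, unchanged meant the same direction and the same side of the threshold. Counts and medians were allowed some shift. Counts of 2 and 4 members past the threshold were thus taken as unchanged from 3, although single members had crossed it. No paired analysis was possible because the groups share no replicate numbers. The limits are 3 mice per group, the absence of p2 values for the members, unadjusted calls, probe sets of similar genes, and dissections that differ in choroid plexus and thalamus.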
